A study of Mus musculus with 21 samples.

Results

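Lmx1a, Msx1, Otx2, Foxa1, Foxa2, Corin, Nr4a2, Pitx3 and Barhl1 are genes of the midbrain floor plate and of the dopaminergic neurons that arise from it. They were chosen by name, and these 9 genes stand among 18193 genes measured in neurons made from mouse embryonic stem cells. Each gene was read from 1 probe set, the one with the largest SD over the 21 arrays, out of 16 probe sets that name these genes. RNA came from purified post-mitotic neurons and was hybridised to Affymetrix mouse expression arrays, 3 biological replicates in each of 7 groups. The groups cover 3 engineered lines, each carrying 1 transcription factor under the enhancer of nestin, a gene of neural progenitors, and wild type cells.

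NesE-Lmx1a cells, labelled as mesencephalic dopamine neurons, were taken at day 14 (mature by their label) and at day 10 (immature), both with sonic hedgehog (SHH) and FGF8. NesE-Nkx2.2 cells, labelled as serotonergic neurons, were taken at day 10 with SHH and retinoic acid (RA), named caudal hindbrain, or with SHH and FGF8, named rostral hindbrain. NesE-Olig2 cells, labelled as somatic motor neurons, received SHH and RA until day 8. Cultures of Wild-type cells were taken at day 8 with RA (dorsal hindbrain by their label) and at day 10 with FGF8 (dorsal midbrain). For the wild-type samples the titles name SHH as well and the source names do not, so a difference of line and a difference of SHH cannot be told apart in any comparison with them. Each line is a single named line, and each was set against wild-type cells and not against a line with an empty enhancer.

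The floor plate is the ventral midline of the neural tube. It secretes SHH and, in the midbrain, gives rise to dopaminergic neurons. FOXA1 and FOXA2 are forkhead factors that establish the floor plate and later support dopaminergic differentiation. LMX1A and MSX1 specify the midbrain floor plate as a source of dopaminergic neurons, and OTX2 sets forebrain and midbrain identity. NR4A2 (Nurr1) and PITX3 act later, in post-mitotic cells, where they control genes of dopamine synthesis and transport. CORIN is a membrane serine protease used as a marker of the midbrain floor plate. BARHL1 is a homeodomain factor of several neuron classes, among them subthalamic and mammillary neurons and the dorsal spinal class dI1. LMX1A is shared with the roof plate, the dorsal midline.

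Foxa1, Foxa2 and Corin varied together over the arrays, and the 250 bases before their annotated starts are shown here for that reason. The sequences come from RefSeq with the build GRCm38.p6 and read towards the gene, which lies on the minus strand in each case. Capitals mark the forkhead letters TGTTTAC or, on the other strand, GTAAACA. The Foxa1 window is chr12:57546112-57546361 and lies before a start inside the annotated span of the gene. The Foxa2 window, chr2:148046970-148047219, and the Corin window, chr5:72504541-72504790, lie directly before the annotated gene.
Foxa1: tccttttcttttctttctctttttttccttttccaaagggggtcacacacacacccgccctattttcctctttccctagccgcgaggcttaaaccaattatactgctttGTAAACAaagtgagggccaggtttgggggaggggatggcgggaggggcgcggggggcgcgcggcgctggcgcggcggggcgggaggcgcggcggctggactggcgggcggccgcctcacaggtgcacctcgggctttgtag
Foxa2: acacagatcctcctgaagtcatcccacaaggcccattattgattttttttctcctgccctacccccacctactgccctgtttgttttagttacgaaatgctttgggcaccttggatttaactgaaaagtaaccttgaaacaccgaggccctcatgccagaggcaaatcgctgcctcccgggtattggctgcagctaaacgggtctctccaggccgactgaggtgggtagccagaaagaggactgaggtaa
Corin: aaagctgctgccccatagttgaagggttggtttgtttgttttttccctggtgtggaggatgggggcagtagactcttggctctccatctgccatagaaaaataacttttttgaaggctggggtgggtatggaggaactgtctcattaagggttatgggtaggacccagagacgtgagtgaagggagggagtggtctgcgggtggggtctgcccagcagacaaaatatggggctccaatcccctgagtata
These letters were present in the Foxa1 window, with their first base 141 bases before the start, and not in the Foxa2 and Corin windows shown. They stood in 1 of the 15 windows of these 9 genes, on either strand, against 3.17% of 32851 mouse windows of this length. Other letters were searched in the same way. TAATCC or GGATTA, which OTX and PITX factors bind, stood in 2 of the 15, those of Barhl1 (53 bases before the start) and Otx2 (211 bases), and in 6.25% of all windows. TTAATTA or TAATTAA, bound by LIM homeodomain factors, stood in 2 of the 15, both of Otx2, and in 2.78% of all windows. AAGGTCA or TGACCTT, the NR4A letters, stood in 0 of the 15 and in 4.08% of all windows. A match here is a string of letters and was not measured as a binding site.

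Every value below is a log2 deviation of a probe set from its own median over 27 arrays, 21 of which were analysed here. It gives differences between arrays and no level, so 1 gene's value cannot be set against another's. Such values cannot show whether a marker of the labelled cell type is present. The median deviation of 6 pan-neuronal genes lay between -1.06 and 0.58 on the 21 arrays, with the lowest value in Nkx2.2 RA neurons. The median of 4 pluripotency genes lay between -0.05 and 0.15. In RNA from many cells, fewer cells of a type and less RNA per cell cannot be told apart. The bioC control probe sets, which report on hybridisation, separated 9 arrays (-3.06 to -1.33) from 12 arrays (-0.12 to 0.72). The labels name no batch, and these 9 and 12 arrays are called the low and high bioC sides. The low side holds every dopaminergic array of day 10, together with replicates 1 and 2 of the dopaminergic day 14, Olig2 and wild-type FGF8 groups. Changes are differences of group means in log2 with the SE from limma, which was fitted over all 21 arrays. The threshold for a call was a change of at least 1 with an adjusted p (Benjamini-Hochberg over 18193 genes) under 0.05.

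Lmx1a and Otx2 were highest in the dopaminergic line, and Msx1 stood out at day 14 of that line alone. Lmx1a, the gene carried by the line, deviated by 9.04, 9.31 and 8.88 at day 14 and by 8.19, 8.06 and 8.33 at day 10. Elsewhere it was lower and uneven. It was -1.95, -1.88 and -1.90 in Nkx2.2 RA neurons, against 1.12, 0.00 and 3.23 in Nkx2.2 FGF8 neurons. Olig2 neurons had -1.87, -1.85 and -1.86, wild-type RA neurons -0.89, 4.39 and 2.02, and wild-type FGF8 neurons 2.90, 3.05 and 1.90. The 6 arrays of the dopaminergic line lay above all 15 others, and day 14 did not overlap day 10. Whether this probe set reads the transgene, the endogenous gene or both is not known here. The spread was smallest in the Olig2 line (SD 0.01) and in Nkx2.2 RA neurons (SD 0.04), and widest in wild-type RA neurons (SD 2.65). Centred values do not show whether the near-equal low values of the Olig2 and Nkx2.2 RA arrays are background signal. Zic1, a factor of dorsal neural cells that stood in the roof plate list, was 5.74, 5.06 and 6.81 on the wild-type RA arrays, and was named after its values were seen. It was not particular to them, with 4.733, 6.21 and 4.782 at dopaminergic day 14 and 7.195, 4.846 and 7.203 in wild-type FGF8 neurons. All Nkx2.2 RA and Olig2 arrays had negative Zic1 values. The median of the 5 roof plate genes was near 0 on the wild-type RA arrays.

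Msx1, a homeodomain factor that acts with LMX1A in the midbrain floor plate, deviated by 1.61, 1.43 and 2.63 at day 14 and by 0.04, 0.00 and 0.25 at day 10. The other 15 arrays lay between -0.34 and 0.28. The ranges of day 14 and of each of the other 6 groups did not overlap. A second probe set of Msx1 was flat, with an SD of 0.04 over the 21 arrays, and showed no change at day 14 (0.02 ± 0.04, SE).

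Otx2 deviated by 5.25, 6.27 and 6.06 at day 14 and by 7.07, 7.25 and 7.48 at day 10 in the Lmx1a line. Nkx2.2 RA neurons had -0.88, -0.89 and 0.37, against 4.95, 0.00 and 6.33 in Nkx2.2 FGF8 neurons. Wild-type RA neurons had -0.90 on all 3 arrays, against 5.51, 2.52 and 5.52 in wild-type FGF8 neurons, and the Olig2 line had -0.87, -0.84 and -0.87. Otx2 was near its lowest values in the 3 groups grown with RA, and varied widely in the Nkx2.2 FGF8 and wild-type FGF8 groups. In the order of means, wild-type FGF8 neurons overlapped both day 14 above them and Nkx2.2 FGF8 neurons below them.

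**Figure D1:**
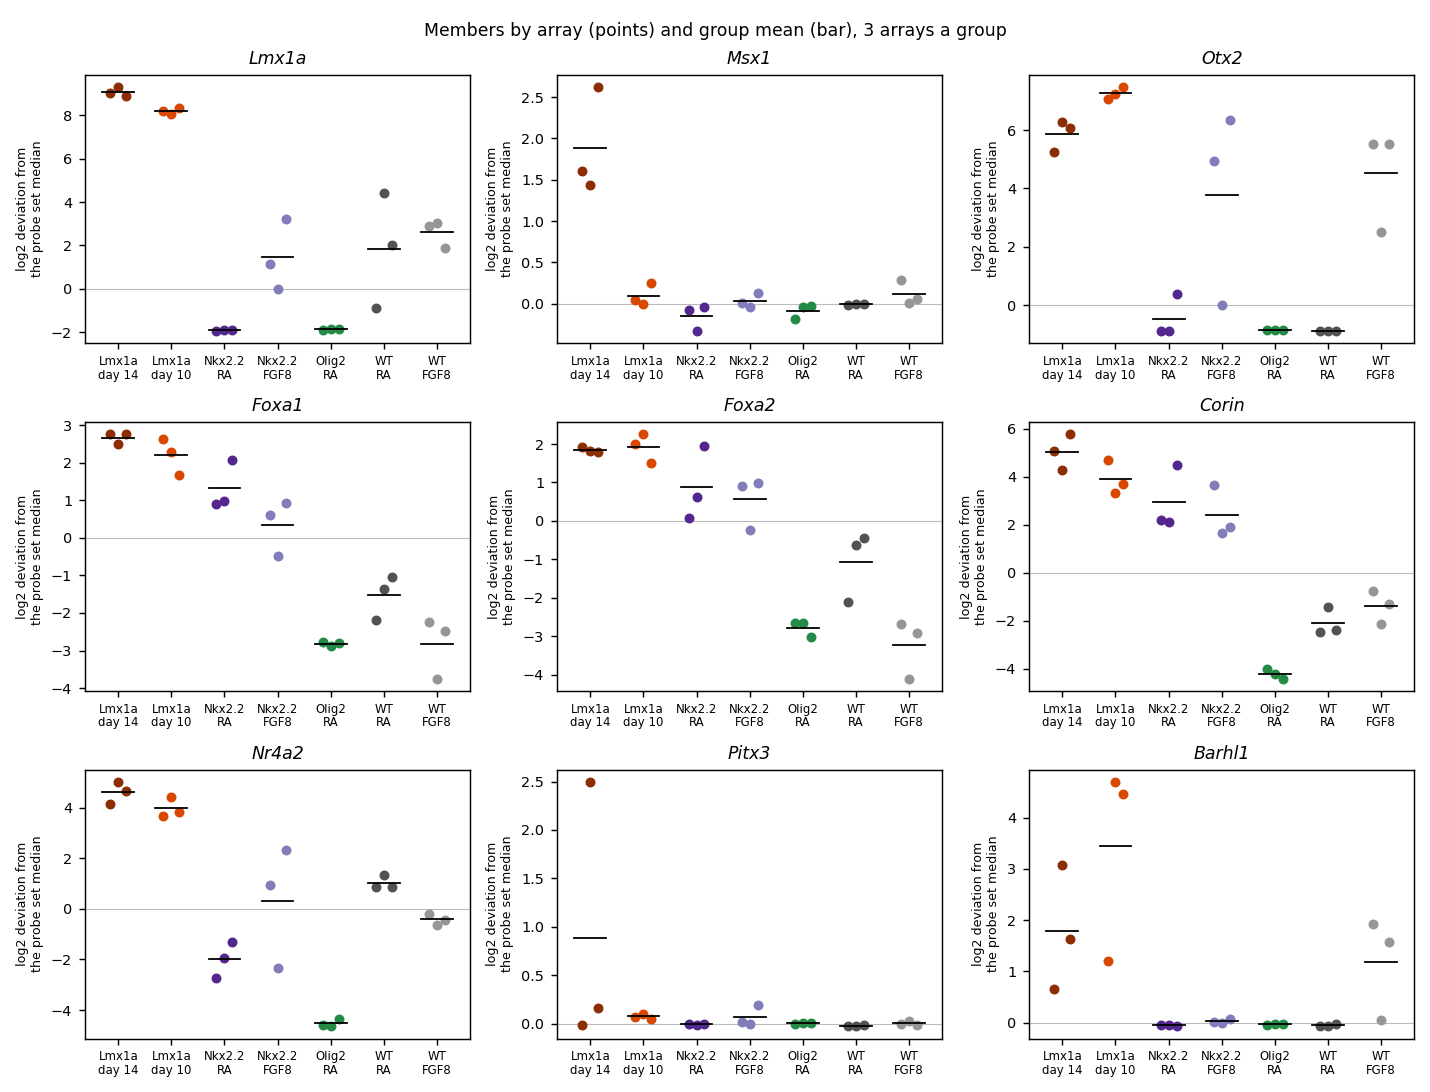
Log2 deviation from the probe set median (vertical axes, which differ in scale) of the 9 genes in 7 groups, with 1 point per array and a bar at the mean of 3 arrays. Foxa1, Foxa2 and Corin were high in the Lmx1a and Nkx2.2 groups, Lmx1a and Nr4a2 in the Lmx1a groups, and Msx1 at day 14.

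Foxa1, Foxa2 and Corin shared a different pattern, in which the Nkx2.2 line was also high. Foxa1 deviated by 2.76, 2.50 and 2.75 at day 14 and by 2.64, 2.27 and 1.67 at day 10 in the Lmx1a line. It was 0.89, 0.99 and 2.08 in Nkx2.2 RA neurons and 0.61, -0.49 and 0.92 in Nkx2.2 FGF8 neurons. It was -2.78, -2.88 and -2.80 in Olig2 neurons, against -2.19, -1.35 and -1.05 in wild-type RA neurons, and -2.23, -3.75 and -2.48 in wild-type FGF8 neurons. All 12 arrays of the Lmx1a and Nkx2.2 lines lay above all 9 of the Olig2 line and the wild type, with no overlap. Within these 12, each group overlapped its neighbour in the order of means.

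Foxa2 gave the same split of 12 and 9 arrays. It deviated by 1.92, 1.83 and 1.80 at day 14 and by 2.00, 2.25 and 1.51 at day 10. Nkx2.2 RA neurons had 0.08, 0.62 and 1.95 and Nkx2.2 FGF8 neurons 0.92, -0.23 and 0.99. Olig2 neurons had -2.67, -2.65 and -3.02, against -2.10, -0.62 and -0.46 in wild-type RA neurons, and wild-type FGF8 neurons had -2.67, -4.11 and -2.92. The lowest value of the Nkx2.2 line, -0.23, came close to the highest of the wild type, -0.46.

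Corin separated the same arrays by a wider gap. It deviated by 5.07, 4.31 and 5.78 at day 14 and by 4.70, 3.31 and 3.70 at day 10. It was 2.19, 2.14 and 4.49 in Nkx2.2 RA neurons and 3.67, 1.68 and 1.90 in Nkx2.2 FGF8 neurons. It was -4.00, -4.20 and -4.41 in Olig2 neurons, -2.46, -1.43 and -2.39 in wild-type RA neurons and -0.74, -2.11 and -1.28 in wild-type FGF8 neurons. The Olig2 line was the lowest group for Corin and did not overlap either wild-type group.

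Nr4a2 marked the dopaminergic line as Lmx1a did, but its order among the other groups was its own. It deviated by 4.15, 5.02 and 4.65 at day 14 and by 3.66, 4.44 and 3.83 at day 10, with overlap. Nkx2.2 RA neurons had -2.74, -1.95 and -1.30, against 0.94, -2.32 and 2.34 in Nkx2.2 FGF8 neurons. Olig2 neurons had -4.58, -4.65 and -4.34, against 0.88, 1.34 and 0.87 in wild-type RA neurons, and wild-type FGF8 neurons had -0.18, -0.62 and -0.45. The 6 dopaminergic arrays lay above all others, and the 3 Olig2 arrays below all others. Of 6 probe sets of Nr4a2, 4 varied over the arrays (SD of 1.96 to 3.15) and 2 were nearly flat (SD of 0.07 and 0.23). The 4 shared high values in the dopaminergic line, and differed among themselves in how far the Olig2 line lay below Nkx2.2 RA neurons. In 1 of them these groups overlapped, with -1.14, -0.71 and -0.57 in the Olig2 line and -0.53, -0.64 and -0.38 in Nkx2.2 RA neurons.

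Pitx3, which acts in post-mitotic midbrain dopaminergic neurons, was above its baseline on a single array. It deviated by -0.01, 2.50 and 0.16 at day 14 and by 0.07, 0.11 and 0.05 at day 10 in the Lmx1a line, and by -0.03 to 0.20 on the other 15 arrays. The array with 2.50, replicate 2 of day 14, also had the highest Slc6a3 of its group (the dopamine transporter, 5.39, against 3.22 and 4.31 in replicates 1 and 3) and the highest Th (tyrosine hydroxylase, 5.20, against 4.38 and 3.48). Slc6a3 and Th were picked for that array after their values were seen, and other genes of the dopamine phenotype were divided. On that array Dlk1 was the highest of its group (2.939, against 1.948 and 2.279) and Slc18a2 the lowest (1.427, against 1.795 and 1.794). Gch1 lay between replicates 1 and 3 there (1.43, against 1.983 and 1.023).

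Barhl1 was high in the dopaminergic line on some arrays. It deviated by 0.66, 3.08 and 1.63 at day 14 and by 1.20, 4.70 and 4.47 at day 10, and by 1.93, 0.05 and 1.58 in wild-type FGF8 neurons. The other 12 arrays, those of the Nkx2.2 and Olig2 lines and of wild-type RA neurons, lay between -0.07 and 0.06. Day 14, day 10 and wild-type FGF8 neurons overlapped. Its second probe set was 0.19 on replicate 1 of day 10, and 3.43 and 2.35 on replicates 2 and 3.

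**Figure D2:**
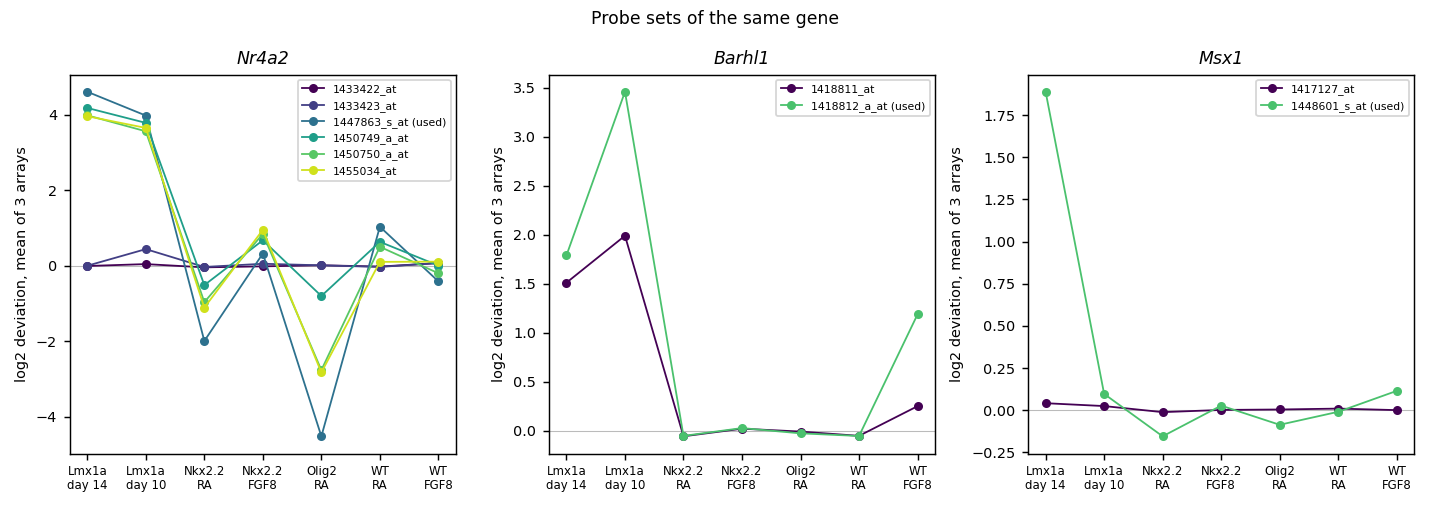
Mean log2 deviation of 3 arrays (vertical axes) in 7 groups for every probe set of Nr4a2, Barhl1 and Msx1, the members with more than 1 probe set. The probe set used varied most in each case, 4 of 6 Nr4a2 probe sets were high in the dopaminergic line and spread apart in the other groups, and the second Msx1 probe set was flat.

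From day 10 to day 14 of the dopaminergic line only Msx1 was called among the 9 members. It rose by 1.79 ± 0.21 (SE, n = 3 arrays each, adjusted p = 0.000125, limma). Over all genes 2.96% were called higher at day 14 and 1.28% lower. The other 8 members were not called: Lmx1a 0.89 ± 0.95, Otx2 -1.41 ± 1.15, Foxa1 0.48 ± 0.45, Foxa2 -0.07 ± 0.52, Corin 1.15 ± 0.66, Nr4a2 0.63 ± 0.77, Pitx3 0.81 ± 0.42 and Barhl1 -1.67 ± 0.75. The 95% intervals were wide for several of these, from -3.86 to 1.04 for Otx2 and from -1.13 to 2.90 for Lmx1a. They rest on a spread pooled over the 7 groups. Lmx1a had an SD of 0.133 at day 10 and 0.215 at day 14, against 2.647 in wild-type RA neurons. Otx2 had 0.206 and 0.536, against 3.329 in Nkx2.2 FGF8 neurons. The median change of the 9 members was 0.63, against -0.05 over all genes. Barhl1 was called lower without replicate 1 of day 10 (-2.80, adjusted p = 0.00584). Msx1 was not called when only these 6 arrays were fitted (adjusted p = 0.0696). Within the low bioC side Msx1 rose by 1.42 (adjusted p = 0.00513, limma). Lmx1a rose there by 0.98 (0.013), under the threshold of 1 for a call, and Otx2 changed by -1.51 (0.401). The labelling controls Dap, Lys, Phe and Thr still differed within that side. Their mean was -3.83, -3.68 and -3.75 at day 10 and -0.332 and 0.361 at day 14, and their part was not tested.

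Other lists gave the setting of this change. Of 12 genes of the dopamine phenotype, Slc6a3 was called, higher at day 14 by 4.26 ± 0.33 (adjusted p = 1.54e-06), and none was lower. Of 5 subthalamic and mammillary factors, the transcription factor Sim1 was lower by a log2 change of -4.20 ± 0.72. Sim1 was 2.712, 2.979 and 4.655 on the day 10 arrays, and also 3.485, 3.824 and 3.205 in Nkx2.2 RA neurons, labelled caudal hindbrain. None of 8 other dopaminergic lineage factors, 11 other floor plate genes, 5 roof plate genes or 4 dI1 genes was called. Of 5 glial genes Aldh1l1, an astroglial gene, was higher at day 14 (2.64), and none of the 5 mesenchymal, 7 progenitor and cycling, 6 pan-neuronal and 4 pluripotency genes was called.

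The comparison of the dopaminergic line at day 10 with wild-type FGF8 neurons asks what differed in the line at the same day. Of the 9 members 5 were higher and none lower: Foxa1 by 5.01 ± 0.45 (adjusted p = 1.98e-05), Foxa2 by 5.15 ± 0.52 (4.93e-05), Corin by 5.28 ± 0.66 (0.00035), Lmx1a by 5.58 ± 0.95 (0.003) and Nr4a2 by 4.40 ± 0.77 (0.0039). Lmx1a is the gene that the line carries, and its rise cannot be told apart from a reading of the transgene. Over all genes 1.96% were called higher in the dopaminergic line and 1.36% lower. Otx2 was 2.75 ± 1.15 (adjusted p = 0.232), Barhl1 2.27 ± 0.75 (0.107), Msx1 -0.02 ± 0.21 and Pitx3 0.07 ± 0.42, none of them called. The member median was 4.40, against 0.03 over all genes. Within the low bioC side, with 3 against 2 arrays, the same 5 genes changed by 4.38 to 5.33. The labelling controls still separated these arrays, with -3.83, -3.68 and -3.75 in the dopaminergic line and -0.459 and -0.982 in wild-type FGF8 neurons. Line and this technical difference cannot be told apart there. Without replicate 1 of day 10, Barhl1 was called (3.40, adjusted p = 0.00346).

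Of 11 other floor plate genes 9 were higher in the dopaminergic line than in wild-type FGF8 neurons, with a list median of 3.07. Among them were Sulf1, a sulfatase of heparan sulfate (4.22 ± 0.58), Ferd3l, a bHLH factor of the floor plate (4.03 ± 0.58), Spon1, the secreted protein F-spondin (4.09 ± 0.60), and Slit2, an axon repellent (2.49 ± 0.38). Of 8 other lineage factors En1 was higher (1.97 ± 0.41), while En2 (-2.96 ± 0.38) and Ebf1 (-2.42 ± 0.60) were lower. En1 and En2 are homeodomain factors of the midbrain and rostral hindbrain, and Ebf1 is a factor of differentiating neurons. Of 12 dopamine phenotype genes Ddc (3.31), Slc18a2 (1.36) and Th (3.87) were higher, which encode the decarboxylase, the vesicular transporter and the hydroxylase of dopamine handling.

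Lists that share a member with other regions did not move as one. Of 5 subthalamic and mammillary factors Sim1 was higher (3.00 ± 0.72), and Dbx1 (-4.16), Wnt8b (-1.89) and Barhl2 (-1.79) were lower in the dopaminergic line. Of 4 dI1 genes Lhx9 (-6.10), Pou4f1 (-3.15) and Lhx2 (-4.30) were lower. None of 5 roof plate genes was called. Slc1a3, a glial glutamate transporter, was higher (3.21), and no mesenchymal, progenitor, pan-neuronal or pluripotency gene was called.

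Against Nkx2.2 neurons of the same day and with the same named factors, 4 of the 9 members were higher in the dopaminergic line and none was lower. Lmx1a was higher by 6.74 ± 0.95 (adjusted p = 0.00072), Nr4a2 by 3.66 ± 0.77 (0.00922), Barhl1 by 3.43 ± 0.75 (0.0108) and Foxa1 by 1.85 ± 0.45 (0.0194). The second Barhl1 probe set gave 1.97 ± 0.64 and was not called (adjusted p = 0.0792). For single probe sets, here and below, p-values were adjusted over 34945 probe sets. The count of members includes Lmx1a, the gene carried by the line. Over all genes 2.2% were called higher in the dopaminergic line and 2.87% lower. Otx2 (3.51 ± 1.15, adjusted p = 0.0728), Foxa2 (1.36 ± 0.52, 0.126) and Corin (1.49 ± 0.66, 0.197) were not called, nor were Msx1 (0.07) and Pitx3 (0.00). All 3 dopaminergic arrays lie on the low bioC side and all 3 Nkx2.2 arrays on the high side, so line and bioC side cannot be told apart here. With the bioC side as a block, estimated from the other groups, Lmx1a kept its call. The changes of Foxa1 (2.07), Nr4a2 (3.75) and Barhl1 (3.55) were no smaller and were not called (adjusted p = 0.0738, 0.0659 and 0.0697). Without replicate 1 or 2 of the dopaminergic group or replicate 2 of the Nkx2.2 group, Foxa1 was not called (1.62, 1.81 and 1.43, adjusted p = 0.0535, 0.055 and 0.0983). Without replicate 3 of the Nkx2.2 group Otx2 was called (4.80, adjusted p = 0.0128).

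Of the other floor plate genes 1 of 11, Slit2 (1.37 ± 0.38), was higher in the dopaminergic line than in Nkx2.2 FGF8 neurons. Neurog2, a proneural factor of dopaminergic progenitors, was the 1 of 8 other lineage factors called (2.82 ± 0.62). Of the dopamine phenotype genes Th was higher (4.33 ± 1.03). Slc18a2 (-3.53), Gch1 (-6.19) and Ddc (-2.79), which serotonergic neurons also use, were lower in the dopaminergic line. None of the subthalamic, roof plate or dI1 genes was called. The glial genes Aqp4 (-4.52) and Aldh1l1 (-2.32) and the mesenchymal gene Dcn (-4.64) were lower in the dopaminergic line, and their part in the results of the members was not tested.

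**Figure D3:**
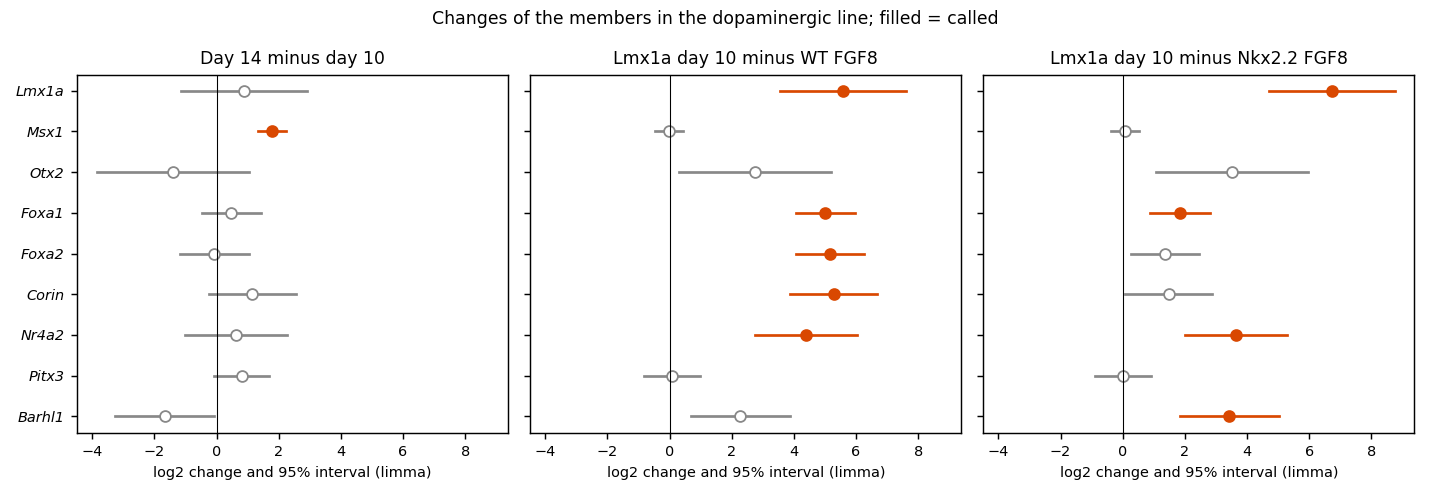
Log2 change (horizontal axes) of the 9 members with 95% intervals from limma, in 3 comparisons of the dopaminergic line, 3 arrays per group, filled where called. Msx1 was called from day 10 to day 14, 5 members against wild-type FGF8 neurons and 4 against Nkx2.2 FGF8 neurons.

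The Nkx2.2 line shared the Foxa and Corin difference from the wild type. Under FGF8, Foxa2 was higher than in wild-type FGF8 neurons by 3.79 ± 0.52 (adjusted p = 0.000339), Foxa1 by 3.17 ± 0.45 (0.000517) and Corin by 3.79 ± 0.66 (0.00236). These 3 of 9 members were called higher and none lower, with 2.83% of all genes called higher and 1.71% lower. Lmx1a (-1.16 ± 0.95), Otx2 (-0.76 ± 1.15), Nr4a2 (0.74 ± 0.77) and Barhl1 (-1.16 ± 0.75) were not called. On the high bioC side, which holds 1 wild-type FGF8 array, the changes were 2.82 for Foxa1, 3.48 for Foxa2 and 3.69 for Corin, none of them called. Without replicate 2 of the Nkx2.2 group, Nr4a2 was called higher (2.06, adjusted p = 0.011). Of 11 other floor plate genes 6 were higher in Nkx2.2 FGF8 neurons and none lower. All 4 dI1 genes and 2 of 5 roof plate genes were lower there, and 2 of 5 glial genes and 1 of 5 mesenchymal genes were higher, and their part was not tested. The comparisons of the Lmx1a and Nkx2.2 lines with wild-type FGF8 neurons share the wild-type arrays.

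Under RA too, Foxa1, Foxa2 and Corin were higher in Nkx2.2 neurons than in wild-type RA neurons, while Lmx1a and Nr4a2 were lower. Foxa1 was higher by 2.85 ± 0.45 (adjusted p = 0.000215), Foxa2 by 1.95 ± 0.52 (0.00976) and Corin by 5.03 ± 0.66 (5e-05). Lmx1a changed by -3.75 ± 0.95 (adjusted p = 0.00727) and Nr4a2 by -3.03 ± 0.77 (0.00776). The 3 other Nr4a2 probe sets that vary gave smaller changes of -1.15, -1.47 and -1.21, of which the first was called (adjusted p = 0.0357, 0.0999 and 0.181). So 3 of 9 members were called higher and 2 lower, where 8.84% of all genes were called higher and 9.16% lower. The Nkx2.2 neurons were of day 10 and the wild type of day 8, so line and day cannot be told apart. Foxa2 was not called without replicate 3 of the Nkx2.2 group (1.41, adjusted p = 0.0514) or replicate 1 of the wild type (1.42, 0.0599). These 6 arrays all lie on the high bioC side, so the changes are those within it. Fitted with the arrays of that side alone, Foxa2, Lmx1a and Nr4a2 had the changes just given and were not called (adjusted p = 0.0796, 0.102 and 0.102). Of 11 other floor plate genes 7 were higher in Nkx2.2 RA neurons and none lower. Glial genes also differed, 3 of 5 being higher, and the median of the glial list lay between 1.61 and 2.49 on the Nkx2.2 RA arrays and between -0.29 and 1.06 on the wild-type RA arrays. In Nkx2.2 neurons 2 of 6 pan-neuronal genes were lower, 2 of 7 progenitor and cycling genes were higher, and 1 of 5 roof plate genes, Zic1, was lower (-7.23). The part of these lists in the members' results was not tested.

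In Olig2 motor neurons 4 of 9 members were lower than in wild-type RA neurons of the same day and none was higher. Nr4a2 was lower by a log2 change of -5.55 ± 0.77 (adjusted p = 0.000194), Lmx1a by -3.70 ± 0.95 (0.0137), Corin by -2.11 ± 0.66 (0.0384) and Foxa2 by -1.72 ± 0.52 (0.0319). Over all genes 5.5% were called higher in Olig2 neurons and 4.85% lower. Foxa1 was -1.29 ± 0.45 (adjusted p = 0.063), and was called without replicate 1 of the wild type (-1.62, 0.0445). Corin was not called without any 1 of the 6 arrays (-2.30 to -1.78, adjusted p = 0.0548 to 0.149). Foxa2 was not called without any 1 of 5 of the 6 arrays, the exception being replicate 1 of the wild type (-1.78 to -1.42, adjusted p = 0.0727 to 0.121). Lmx1a was not called without replicate 2 of the wild type (-2.42, adjusted p = 0.0631), the array with 4.39. Of 11 other floor plate genes 1 was higher and 1 lower in Olig2 neurons. Zic1, the 1 of 5 roof plate genes called, was lower (-7.34), as were 2 of 5 mesenchymal genes, 1 of 4 dI1 genes, 1 of 5 glial genes (Aldh1l1, -2.83) and 1 of 6 pan-neuronal genes (Elavl3, -1.36), and their part was not tested. On the high bioC side, which holds 1 Olig2 array, the changes were -5.37 for Nr4a2, -3.70 for Lmx1a, -2.32 for Corin and -1.96 for Foxa2, none of them called. The 3 other Nr4a2 probe sets that vary were also called lower, with changes of -1.44, -3.27 and -2.93.

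The Nkx2.2 and Olig2 lines, both grown with RA, were also compared. Nkx2.2 RA neurons were higher than Olig2 neurons in Corin by 7.14 ± 0.66 (adjusted p = 2.16e-06), Foxa1 by 4.14 ± 0.45 (9.93e-06), Foxa2 by 3.66 ± 0.52 (0.000108) and Nr4a2 by 2.53 ± 0.77 (0.0293). These 4 of 9 were called higher and none lower, with 6.19% of all genes called higher and 6.94% lower. Day 10 is set against day 8 here too. In Nkx2.2 RA neurons 3 of 5 glial and 3 of 5 mesenchymal genes were higher, and their part was not tested. The call of Nr4a2 was lost without replicate 2 or 3 of the Nkx2.2 group or any 1 Olig2 array (2.18 to 2.62, adjusted p = 0.0573 to 0.097). It was also lost in the 3 other Nr4a2 probe sets that vary, which gave 0.29, 1.80 and 1.72 (adjusted p = 0.732, 0.0517 and 0.0607). On the high bioC side, which holds 1 Olig2 array, the changes were 4.12 for Foxa1, 3.9 for Foxa2, 7.35 for Corin and 2.35 for Nr4a2.

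The patterning factor was compared within a line and within the wild type. In the Nkx2.2 line at day 10, RA neurons were lower than FGF8 neurons in Otx2 (-4.23 ± 1.15, adjusted p = 0.0377) and Lmx1a (-3.36 ± 0.95, 0.0444), and none of the 9 members was higher. Over all genes 2.66% were called higher with RA and 1.65% lower. Both calls were lost without replicate 1 or 3 of the FGF8 group or replicate 1 or 2 of the RA group (Otx2 -4.02 to -2.94, adjusted p = 0.108 to 0.146; Lmx1a -3.53 to -2.47, 0.0829 to 0.17). Lmx1a was also not called without replicate 3 of the RA group (-3.37, adjusted p = 0.0833). Without replicate 2 of the FGF8 group Nr4a2 was called lower (-3.64, adjusted p = 0.000222), against -2.32 ± 0.77 (0.0901) with it. Foxa1 (0.98 ± 0.45), Foxa2 (0.32 ± 0.52) and Corin (0.52 ± 0.66) were not called, with 95% intervals of 0.02 to 1.93, -0.77 to 1.42 and -0.88 to 1.92. With RA 2 of 5 glial genes were higher and 2 of 6 pan-neuronal genes lower, and their part was not tested.

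In wild-type cells Otx2 was lower with RA than with FGF8 (-5.42 ± 1.15, adjusted p = 0.00695) and Foxa2 was higher (2.17 ± 0.52, 0.0133), again with day 8 set against day 10. These were 1 of 9 members higher and 1 lower, with 4.29% of all genes called higher and 3.11% lower. Foxa1 was 1.29 ± 0.45 (adjusted p = 0.0779) and Corin -0.72 ± 0.66 (0.479), not called. Foxa2 was not called without replicate 2 of the RA group (1.96, adjusted p = 0.0613). On the high bioC side, which holds 1 FGF8 array, the changes were -6.42 for Otx2 and 1.86 for Foxa2, neither called. With RA 2 of 5 glial genes and 1 of 5 mesenchymal genes were higher, and 3 of 4 dI1 genes, 1 of 5 roof plate genes and 1 of 7 progenitor and cycling genes were lower. Of 6 pan-neuronal genes 1 was higher and 1 lower, and the part of these lists was not tested.

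In some groups the same replicate was lowest or highest for most members, a share that was not counted over all genes. In the Nkx2.2 FGF8 group replicate 2 was the lowest of the 3 arrays for 9 of 9 members and replicate 3 the highest for 8. In wild-type FGF8 neurons replicate 2 was the lowest for 7 members, and in wild-type RA neurons replicate 1 was the lowest for 7. Some of these ranks rest on small differences, as for Barhl1 in Nkx2.2 FGF8 neurons (0.02, 0.00 and 0.06). In wild-type RA neurons Otx2 and Pitx3 were counted although replicates 1 and 2 were tied after rounding. Wild-type FGF8 replicate 2 also had a median of -1.32 over 7 progenitor and cycling genes, and its value of Mki67, a gene of cycling cells, was -2.32, against 1.79 and 2.2 on replicates 1 and 3. On replicate 3 of the dopaminergic line at day 10, where Otx2 was highest and Foxa1 and Foxa2 lowest of the 3, Nkx2-1 was 3.82, against 0.13 and 0.29 on replicates 1 and 2, and Lhx2 was 5.24, against 1.82 and 0.37. NKX2-1 is a factor of the ventral forebrain and LHX2 a factor of the dorsal forebrain and of dI1 neurons. Replicate 3 of Nkx2.2 FGF8 neurons had 4.82 for Lhx2, against 0.08 and -0.02 on replicates 1 and 2. The dI1 list was divided on these replicate 3 arrays of the dopaminergic and Nkx2.2 lines. Lhx9 was also the highest of its group (2.883 and 3.758), while Pou4f1 was the lowest (-0.597 and -1.561) and Atoh1 was near 0 (-0.012 and -0.021). Lhx2 was higher still on the wild-type FGF8 arrays (7.092, 5.788 and 7.451). These genes were named after their values were seen, and their part in the results was not tested. On the dopaminergic day 10 arrays the mean of the labelling controls Dap, Lys, Phe and Thr was -3.83, -3.68 and -3.75, against -0.46, -0.98 and -0.27 on the wild-type FGF8 arrays. It was -0.332, 0.361 and -1.803 on the dopaminergic day 14 arrays and 1.428, 1.254 and -1.115 on the Nkx2.2 FGF8 arrays. All other arrays lay above those of day 10 of the dopaminergic line, and the part of these controls was not tested either.

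Over the 21 arrays, 3 from each group and so sharing group means and bioC side, Foxa1 and Foxa2 had a Pearson r of 0.98, Foxa1 and Corin 0.95, and Foxa2 and Corin 0.90. Lmx1a and Nr4a2 had 0.92 and Lmx1a and Otx2 0.81, while Lmx1a had 0.60 with Foxa1 and 0.56 with Foxa2. These correlations are descriptions across arrays. Among all genes the 3 most like Foxa1 were Foxa2, 9030622O22Rik (0.98) and Sulf1 (0.97). Nearest to Foxa2 were Foxa1, Sulf1 (0.96) and 9030622O22Rik (0.95). Nearest to Corin were Foxa1, Upp1 (0.94) and Itm2c (0.94). For Lmx1a they were Nr4a2, Dmrta2 (0.91) and Cdk14 (0.88), and for Nr4a2 they were Lmx1a, Eri3 (0.92) and Foxp2 (0.91). Otx2 had Dmrta2 (0.92), Calb1 (0.90) and Th (0.90). Msx1 had Mboat1 (0.95), Pdgfb (0.95) and Serpinb1a (0.93), and Barhl1 had Syt13 (0.91), Cotl1 (0.88) and Myl6 (0.86). Pitx3 had Pik3ap1 (0.98), Slc26a7 (0.97) and Gpr158 (0.97), and its own variation is that of 1 array.

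**Figure D4:**
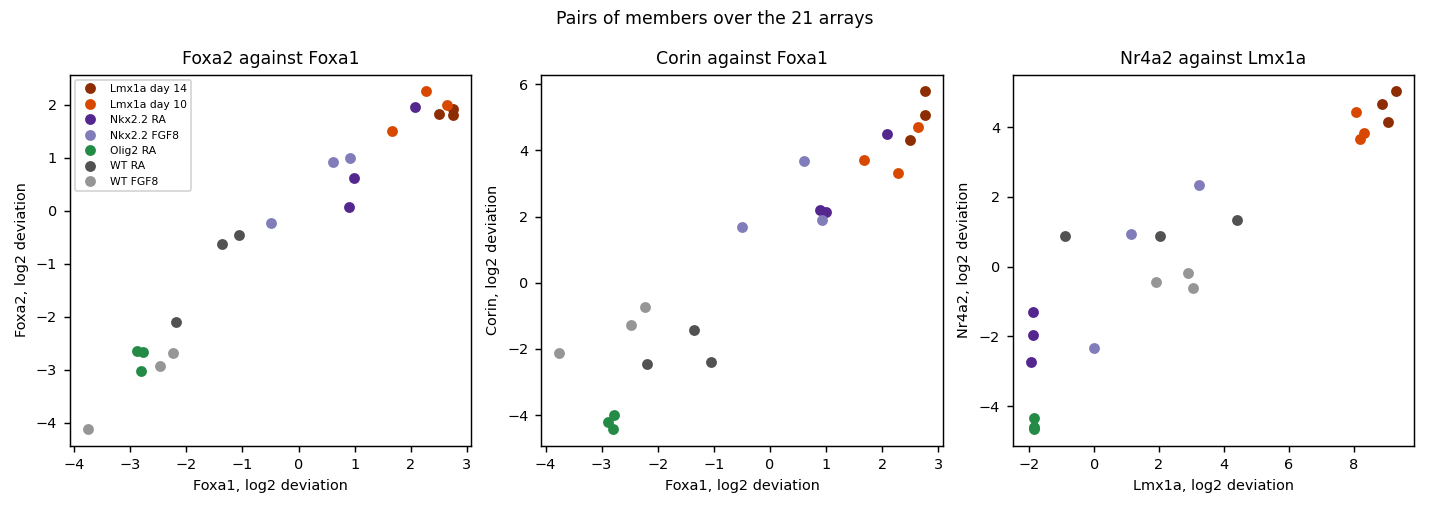
Log2 deviations of Foxa2 against Foxa1, Corin against Foxa1 and Nr4a2 against Lmx1a over the 21 arrays, coloured by group. Foxa1, Foxa2 and Corin all separate the 12 arrays of the Lmx1a and Nkx2.2 lines from the 9 others, among which Corin orders the groups differently from Foxa2. For Lmx1a and Nr4a2 the 6 dopaminergic arrays stand apart from the rest.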

How the data were processed

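The deposited table holds log2 signals made with GCRMA (per the submitters' processing notes; version not given in the sources used here) from biotin-labelled cRNA of 2 ug of total RNA, per the labels' protocols. The values show that the median over 27 arrays was subtracted from each probe set: at most 13 lie above 0 and at most 13 below. The 6 other arrays were not analysed here. Of 45101 probe sets, 64 controls were set aside, 34945 name 1 gene in the platform annotation, 932 several and 9160 none. Each gene was read from its probe set of largest SD across the 21 arrays, a rule that favours the one varying most and gave 18193 genes.

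Groups were compared on the log2 values by limma 3.58.1 under R 4.3.3 (lmFit with 1 mean per group, contrasts.fit, eBayes; 14 residual and 1.11 prior degrees of freedom). Labels call the replicates biological, and the number of arrays limits the precision. There were 8 comparisons, and Nkx2.2 RA against Olig2 was added after the values were seen. The members and the 11 gene lists (72 of 80 genes tested) were chosen with earlier results of these data known. Named genes are all members, up to 4 called genes per identity list and comparison of the dopaminergic line by smallest p, the 3 genes most like each member, and called genes of other cell types, which were added after their values were seen, as were genes of single arrays. Replicate numbers did not pair arrays: residuals correlated at 0.00603 on average over 63 pairs with the same number and at -0.00337 over 126 others. The fit was tested on simulated data with normal noise and 1 SD per gene for all groups. In the data the SD of a gene differed between groups, from 0.001 to 3.329 for Otx2, and the simulation does not cover that. Alternatives were a replicate block, only the arrays compared, other probe set rules, arrays centred on their median, array weights, trend and robust moderation, a range filter, a stricter threshold, the bioC side as a block or singly, and arrays left out.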

Additional observations from a re-analysis of the deposited data

Results flagged for a closer look

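The effects of 2 lines set against the same wild-type arrays differed for some members, tested directly as the difference between the lines. The wild-type arrays cancel in this difference, so these are the line comparisons already given above. Under FGF8 at day 10, the effect in the Lmx1a line minus that in the Nkx2.2 line was 6.74 for Lmx1a, 1.85 for Foxa1, 3.66 for Nr4a2 and 3.43 for Barhl1 (log2, limma, adjusted p = 0.00072, 0.0194, 0.00922 and 0.0108). In each of these 4 genes all 3 arrays of the Lmx1a line lay above all 3 of the Nkx2.2 line. These Lmx1a arrays lie on the low bioC side and the Nkx2.2 arrays on the high side, so line and side cannot be told apart. With the bioC side as a block Lmx1a, the gene carried by the Lmx1a line, kept its call. Foxa1, Nr4a2 and Barhl1 did not (adjusted p = 0.0738, 0.0659 and 0.0697, limma). Under RA, the effect in the Nkx2.2 line minus that in the Olig2 line was 4.14 for Foxa1, 3.66 for Foxa2, 7.14 for Corin and 2.53 for Nr4a2 (adjusted p = 9.93e-06, 0.000108, 2.16e-06 and 0.0293). The 3 other Nr4a2 probe sets that vary gave 0.29, 1.80 and 1.72 and were not called (adjusted p = 0.732, 0.0517 and 0.0607), and the second Barhl1 probe set gave 1.97 in the first comparison and was not called (adjusted p = 0.0792). In Foxa1, Foxa2, Corin and Nr4a2, as first read, the 3 arrays of the Nkx2.2 line lay above the 3 of the Olig2 line. Nkx2.2 RA neurons were of day 10 and Olig2 neurons of day 8, so line and day cannot be told apart.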

How the results depend on the processing

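The number of members called is given here where it moved by over 1.5 times. The share of all genes called was not counted under the alternatives, so a moved count cannot be read as particular to the members. From day 10 to day 14, with 1 as reported, it was 0 with only the arrays compared, with the mean of all probe sets, with probe sets without a name suffix and with a change of 2 or more. It was 3 with array weights, and 2 without 3 arrays (replicate 1 of Lmx1a day 10, replicate 2 of wild-type FGF8 and replicate 1 of Nkx2.2 FGF8). These 3 arrays had the highest medians over genes (0.0756, 0.0611 and 0.0413). Over the members, replicates 2 and 3 of Nkx2.2 FGF8 were the more extreme ones of that group. For Lmx1a day 10 against Nkx2.2 FGF8, with 4, it was 1 with only the arrays compared, 1 with the bioC side as a block and 7 with array weights. For Nkx2.2 FGF8 against wild-type FGF8, with 3, it was 1 with only the arrays compared and 7 with array weights. Foxa1, Foxa2 and Corin lost their calls within the high bioC side, which holds 1 wild-type FGF8 array, and Barhl1 changed by -1.55 there. For Nkx2.2 RA against wild-type RA, with 5, it was 3 with only the arrays compared and 2 within the high side. For Olig2 against wild-type RA, with 4, it was 2 with only the arrays compared, 2 with the bioC block and 0 within the high side. For Nkx2.2 RA against FGF8, with 2, it was 1 with the replicate block, with the bioC block and with arrays centred on their median, and 0 with only the arrays compared, within the high side and without the 3 arrays. For wild-type RA against FGF8, with 2, it was 1 with the bioC block and 5 with array weights. Otx2 and Foxa2 lost their calls within the high side, where Barhl1 changed by -1.63. For Nkx2.2 RA against Olig2, with 4, it was 2 within the high side. Leaving out 1 array at a time gave 1 to 2 members from day 10 to day 14, 0 to 3 for Nkx2.2 RA against FGF8, 1 to 4 for Olig2 against wild-type RA and 1 to 2 for wild-type RA against FGF8, and stayed within 1.5 times in the 5 other comparisons. The replicate block moved no other count by over 1.5 times and changed the call of 1 member, Lmx1a in Nkx2.2 RA against FGF8 (adjusted p = 0.0552). With array weights Nr4a2 turned to -1.57 in Nkx2.2 FGF8 against wild-type FGF8 (adjusted p = 0.00415). The 2 nearly flat Nr4a2 probe sets turned sign: the flatter gave -0.027 in Lmx1a day 10 against wild-type FGF8, 0.033 in Olig2 against wild-type RA and -0.055 in Nkx2.2 RA against Olig2, and the other gave 0.041 and -0.043 in the last 2 of these. The causes were not tested. Within the high side the Olig2 and wild-type FGF8 groups hold 1 array each. Nkx2.2 RA against wild-type RA and against Nkx2.2 FGF8 kept all their arrays and the same changes there, and lost calls too. The 5 calls of Lmx1a day 10 against wild-type FGF8 stayed within 1.5 times in number under every alternative run. Centred values hide which arrays had signal above background.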
